A study of Saccharomyces cerevisiae with 4 samples.

Results

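The genes described here encode the enzymes that carry glucose to ethanol and acetate in Saccharomyces cerevisiae, with the sensors and transcriptional regulators that tune them to glucose. They are 36 genes chosen by name, of which 35 had a probe set annotated to that gene alone, among 5449 yeast genes measured. TDH2, a glyceraldehyde-3-phosphate dehydrogenase gene, had none and was not analysed here. Each of the 35 was read by 1 probe set, and all 35 lay above background on all 4 arrays.

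RNA was taken from 2 wild-type and 2 Sen1ΔN cultures, hybridised to Affymetrix arrays, to ask how basal expression differs when Sen1, a nuclear helicase that helps end transcription of non-coding RNAs, lacks part of its N terminus. All cultures grew without treatment in synthetic complete medium with 2% glucose at 24 °C, from an OD600 of 0.4 to harvest at 1.5. The wild type was BY4741, a MATa strain with the alleles his3_delta_1 and leu2_delta_0 as well as met15_delta_0 and ura3_delta_0. The Sen1ΔN strain was MATα with ade2-101 and his3-200, with lys2-801 and trp1-_delta_1, and with ura3-52. Its sen1 allele is written into the LEU2 locus as leu2-_delta_1::sen1-2. Mating type and auxotrophies thus differ along with SEN1, so every difference below is one between these strains, in which the part of sen1 and that of the background cannot be told apart.

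Glycolysis splits a phosphorylated hexose into 3-carbon units and recovers energy on the way to pyruvate, which budding yeast growing on glucose mostly ferments to ethanol even in air. Many steps have isozymes, of which one usually serves growth on glucose while others are expressed at other sugar levels or carbon sources. Glucose outside the cell is read by the membrane sensors Snf3 and Rgt2, which trigger breakdown of the corepressors Mth1 and Std1 and so release hexose transporter genes from the repressor Rgt1. Glucose also lets Mig1 and Mig2 repress genes of other carbon sources, and Gcr1 activates the glycolytic genes themselves.

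Signals are given on the log2 scale as deposited. Across genes, which are not independent replicates, the wild-type arrays correlated with each other at 0.997 and the Sen1ΔN arrays at 0.993 (Pearson's r). The mating-type check followed the labels, since 7 of 7 genes specific to MATa cells were lower in Sen1ΔN (median -4.18) and 5 of 5 specific to MATα cells were higher (median 2.98). Of the auxotrophic markers, MET17 (also MET15) followed the label of the wild type, at 3.83 and 4.48 there and at 12.13 and 12.09 in Sen1ΔN. URA3, mutated in both labels, averaged 5.14 and 7.99. HIS3, with a his3 allele in both labels, lay at 11.93 and 11.94 in the wild type and at 6.36 and 5.91 in Sen1ΔN. LEU2, with a leu2 allele in both labels, lay at 6.01 and 6.07 in the wild type and at 12.17 and 12.21 in Sen1ΔN. SEN1 itself was 2.78-fold higher in Sen1ΔN (1.47 log2, SE 0.09, limma adjusted p = 0.000239), and where its probe set lies relative to the truncation is unknown here.

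Glycolytic and fermentative enzyme genes were mostly lower in Sen1ΔN, by small amounts where their signal was bright, and the sensor and regulator genes changed in both directions. Of the 35 genes, 17 fell and 7 rose at a limma adjusted p under 0.05, and 11 did not pass. Across all genes 34.4% fell and 35.3% rose, so 69.7% were called in either direction, and the 24 calls among the 35 lay near that background. In RNA of whole cultures, fewer cells expressing a gene and less RNA per cell cannot be told apart. At least 2-fold changes numbered 5 falls (GLK1, ADH5, MIG2, GPM2 and RGT2) and 5 rises (SNF3, RGT1, MTH1, PFK26 and GCR1). Across all genes 11.3% fell and 8.63% rose by that much, 19.9% in all. Of the 5 falls, all but GLK1 were under 2-fold with quantile normalisation (-0.99 to -0.97). The same falls were under 2-fold with the trend of the difference on gene length removed (-0.95 to -0.81). The 5 rises stayed at least 2-fold in both settings. The arrays of the strains did not overlap for 33 of the 35, all but PFK2 and PFK27, against 87.2% of all genes. The enzyme genes split into 15 falls and 2 rises among 27, with a median of -0.25 log2, against a median of 0.01 over all genes. With the trend of the difference on gene length removed, these medians were -0.12 and 0.05. The 18 enzyme genes above the 90th percentile of wild-type signal had a median of -0.23, the same as all 545 genes that bright. That match did not hold in other settings. The medians were -0.11 against -0.27 with the length trend removed, and -0.21 against -0.14 with quantile normalisation. The other 9 enzyme genes had a median of -0.88, against 0.04 over all genes not that bright. The 8 sensor and regulator genes had 5 rises and 2 falls, with a median of 0.82. Differences are Sen1ΔN minus wild type with n = 2 arrays per strain, and their SE ran from 0.06 to 0.28.

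**Figure D1:**
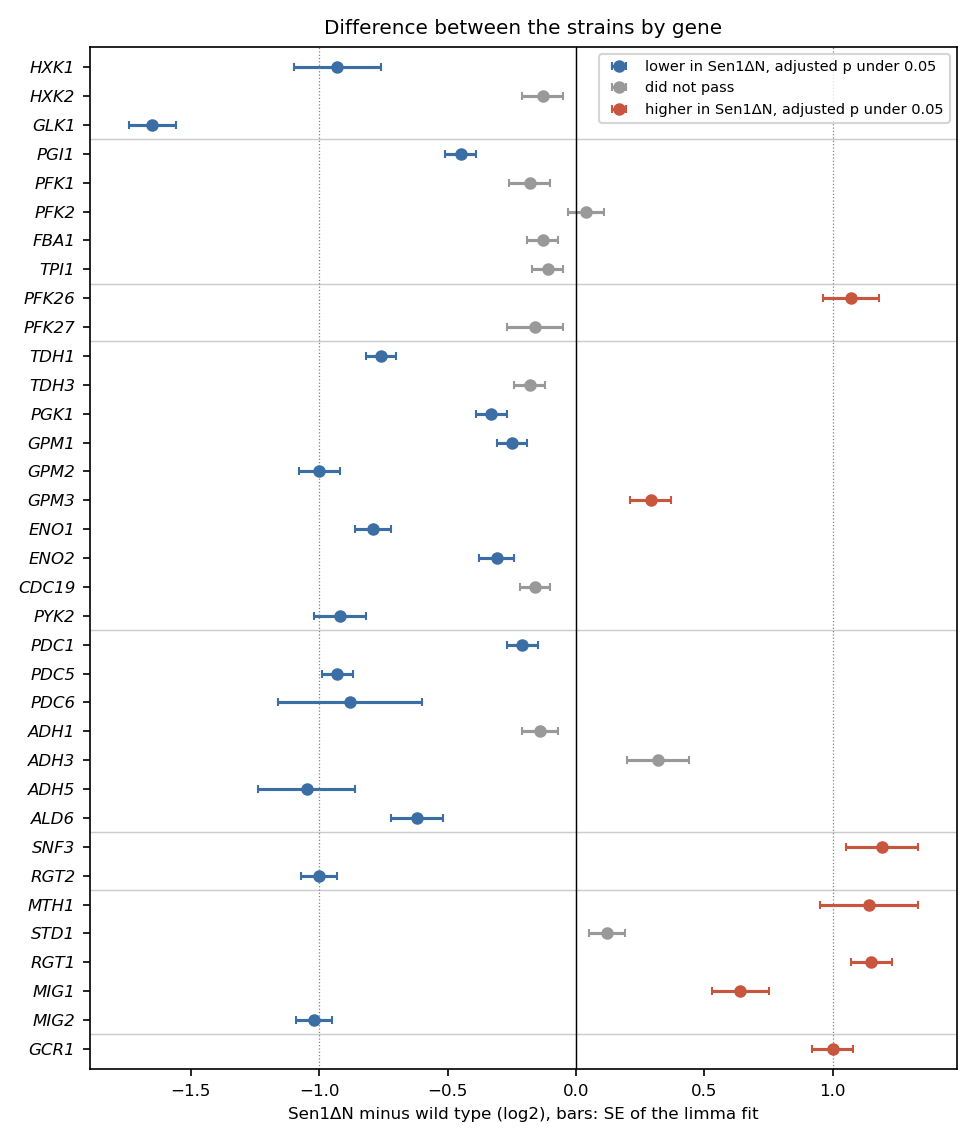
Difference between the strains (Sen1ΔN minus wild type, log2) for each of the 35 measured genes, grouped by role, with bars for the SE of the limma fit over 2 arrays per strain; dotted lines mark 2-fold. Enzyme genes lie mostly left of 0, from GLK1 at -1.65 upwards, while SNF3 (1.19), RGT1 (1.15), MTH1 (1.14) and PFK26 (1.07) lie to the right.

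The genes for the first step of glycolysis, phosphorylation of glucose, showed the largest fall. GLK1 (YCL040W), which encodes glucokinase, gave 13.61 and 13.73 in the wild type against 11.94 and 12.10 in Sen1ΔN. It fell by 1.65 log2, or 3.13-fold (SE 0.09, limma adjusted p = 0.000217), the largest absolute difference among the 35 genes. HXK1 (YFR053C), the hexokinase isozyme favoured on carbon sources other than glucose, gave 13.62 and 13.63 in the wild type and 12.45 and 12.94 in Sen1ΔN. The groups did not overlap, but the Sen1ΔN arrays lay far apart from each other, and the fall of 0.93 (SE 0.17, limma adjusted p = 0.00691) did not pass in an unmoderated linear model (adjusted p = 0.0997). HXK2 (YGL253W), the main hexokinase during growth on glucose and also a partner of Mig1 in repression, lay at 13.78 and 13.80 against 13.74 and 13.58. Its difference of -0.13 (SE 0.08) did not pass.

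Upper glycolysis differed little. PGI1 (YBR196C), for phosphoglucose isomerase, fell by 0.45 (SE 0.06, limma adjusted p = 0.00272), from 13.98 and 13.97 to 13.51 and 13.53. It was the only called gene of the 5 in this segment, where 69.7% of all genes were called. PFK1 and PFK2, which encode the α and β subunits of phosphofructokinase, differed by -0.18 and 0.04. Aldolase (FBA1) and triosephosphate isomerase (TPI1) differed by -0.13 and -0.11. None of these 4 passed, and for PFK2 the arrays of the strains overlapped. PFK1 passed without Sen1ΔN replicate 1 (-0.26, adjusted p = 0.0384) and was -0.10 without replicate 2, and TPI1 passed in the unmoderated model (adjusted p = 0.0267). For FBA1 the sign turned to 0.07 once the trend of the difference with gene length, described below, was removed.

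The kinases that make fructose 2,6-bisphosphate, the activator of phosphofructokinase, differed from each other. PFK26 (YIL107C) gave 10.90 and 10.96 in the wild type and 11.86 and 12.14 in Sen1ΔN, a rise of 1.07 (SE 0.11, limma adjusted p = 0.00111). Both Sen1ΔN arrays lay well above both wild-type arrays. PFK27 (YOL136C) lay at 10.71 and 10.87 against 10.75 and 10.52, so the groups overlapped, and its difference of -0.16 did not pass.

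In lower glycolysis 7 of 10 measured genes fell and 1 rose, where 34.4% of all genes fell and 35.3% rose. TDH1 (YJL052W), a glyceraldehyde-3-phosphate dehydrogenase gene used chiefly outside fast growth, gave 14.20 and 14.21 in the wild type and 13.43 and 13.45 in Sen1ΔN. It fell by 0.76 (SE 0.06, limma adjusted p = 0.000552). TDH3 (YGR192C), the main gene of that enzyme, lay at 14.74 on both wild-type arrays against 14.56 and 14.57 in Sen1ΔN, and its difference of -0.18 did not pass (limma adjusted p = 0.0562), though it did in the unmoderated model (adjusted p = 0.00969). TDH3 was the brightest yeast gene on all 4 arrays, so its difference is that between the tops of the arrays' scales. It became 0.00 when the arrays were quantile normalised.

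The enolase genes fell by unequal amounts. ENO1 (YGR254W) gave 14.46 and 14.48 in the wild type and 13.74 and 13.62 in Sen1ΔN, a fall of 0.79 (SE 0.07, limma adjusted p = 0.000747). ENO2 (YHR174W), the enolase gene induced by glucose, gave 14.38 and 14.42 against 14.11 and 14.07, a fall of 0.31 (SE 0.07, limma adjusted p = 0.0106). The call of ENO2 was lost without either wild-type array (adjusted p up to 0.0877) and with the length trend removed (-0.11, adjusted p = 0.200). The same split held for pyruvate kinase, the last step of glycolysis. PYK2 (YOR347C), the isozyme repressed by glucose, gave 11.09 and 11.16 against 10.08 and 10.31 and fell by 0.92 (SE 0.10, limma adjusted p = 0.00126). CDC19 (YAL038W), the main pyruvate kinase gene, differed by -0.16 and did not pass (limma adjusted p = 0.0730), though it did in the unmoderated model (adjusted p = 0.0420).

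PGK1, for phosphoglycerate kinase, fell by 0.33 (SE 0.06, limma adjusted p = 0.00780), and GPM1, for phosphoglycerate mutase, fell by 0.25 (SE 0.06, limma adjusted p = 0.0212). Both calls were lost without either wild-type array (adjusted p up to 0.0669 for PGK1 and 0.142 for GPM1), that of PGK1 also with the length trend removed (-0.12, adjusted p = 0.148), and that of GPM1 with quantile normalisation (-0.17, adjusted p = 0.0618). GPM2 and GPM3 are homologs of GPM1 whose products are thought to lack mutase function. GPM2 (YDL021W) gave 10.67 and 10.70 against 9.60 and 9.77 and fell by 1.0 (SE 0.08, limma adjusted p = 0.000552). GPM3 (YOL056W) rose by 0.29 (SE 0.08, limma adjusted p = 0.0296), from 10.32 and 10.34 to 10.71 and 10.54. Its call did not hold in the unmoderated model (adjusted p = 0.115) or without Sen1ΔN replicate 1 (0.21, adjusted p = 0.0627) or either wild-type array (adjusted p up to 0.135).

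**Figure D2:**
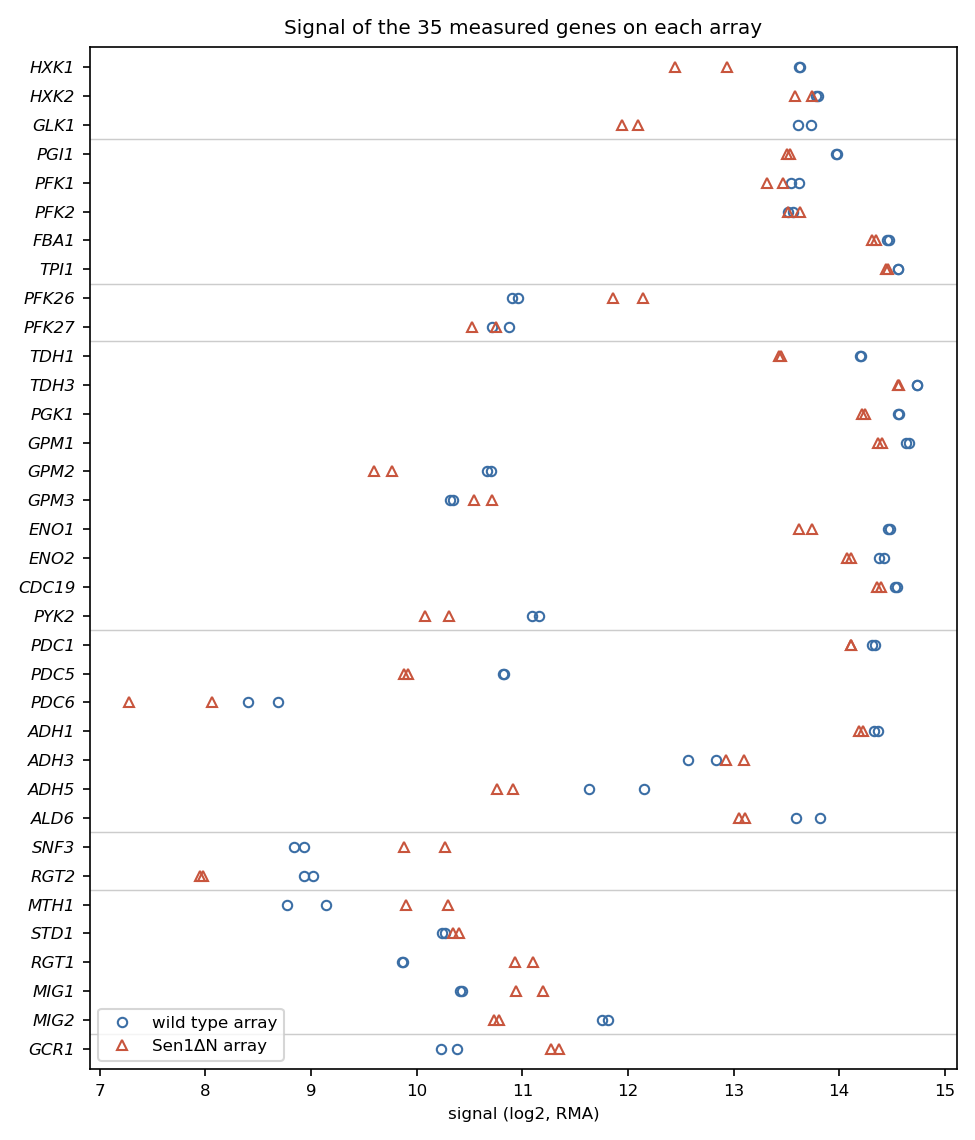
Signal (log2, RMA) of the 35 measured genes on each array, with circles for the 2 wild-type arrays and triangles for the 2 Sen1ΔN arrays; grey lines separate the roles. The main glycolytic genes crowd at the bright end, up to TDH3 at 14.74, with the strains close together, and the sensor and regulator genes lie below 12 with the strains mostly further apart.

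Among the fermentation genes 5 of 7 fell and none rose at an adjusted p under 0.05. Over all genes 34.4% fell and 35.3% rose, 69.7% in either direction. Pyruvate decarboxylase commits pyruvate to ethanol. PDC1 (YLR044C), its main gene, gave 14.34 and 14.31 in the wild type and 14.11 and 14.11 in Sen1ΔN, a fall of 0.21 (SE 0.06, limma adjusted p = 0.0344). That call was lost when any 1 of the 4 arrays was left out (adjusted p from 0.0596 to 0.201) and with the length trend removed (-0.08, adjusted p = 0.321). PDC5 (YLR134W), the isozyme that takes over when PDC1 is missing, gave 10.83 and 10.82 against 9.92 and 9.88. Its fall of 0.93 (SE 0.06, limma adjusted p = 0.000360) passed in each setting tried. PDC6 (YGR087C), a minor isozyme, gave 8.40 and 8.69 against 7.28 and 8.06, with the widest gap between Sen1ΔN arrays of the 35 genes, 0.78. It fell by 0.88 (SE 0.28, limma adjusted p = 0.0398), and by 0.49 without Sen1ΔN replicate 1. Without either wild-type array it did not pass (adjusted p up to 0.126), nor in the unmoderated model (adjusted p = 0.217), nor with the length trend removed (-0.74, adjusted p = 0.0644).

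Alcohol dehydrogenases moved unequally. ADH1 (YOL086C), which makes ethanol from acetaldehyde, lay at 14.33 and 14.37 in the wild type and at 14.19 and 14.23 in Sen1ΔN, and its difference of -0.14 did not pass. ADH5 (YBR145W), a minor alcohol dehydrogenase gene, gave 11.63 and 12.15 against 10.76 and 10.91. It fell by 1.05 (SE 0.19, limma adjusted p = 0.00614), with the widest gap between wild-type arrays of the 35 genes, 0.52, and did not pass in the unmoderated model (adjusted p = 0.0964). ADH3 (YMR083W), the mitochondrial isozyme, gave 12.57 and 12.83 against 13.10 and 12.93. Its difference of 0.32 (SE 0.12) did not pass (limma adjusted p = 0.0634), and without 1 array it ran from 0.19 (adjusted p = 0.278, without wild type replicate 1) to 0.45 (adjusted p = 0.0419, without wild type replicate 2). It also passed without Sen1ΔN replicate 2 (0.40, adjusted p = 0.0417), with quantile normalisation (0.48, adjusted p = 0.0106) and with the length trend removed (0.53, adjusted p = 0.0137). ALD6 (YPL061W), the cytosolic aldehyde dehydrogenase that turns acetaldehyde to acetate, gave 13.59 and 13.82 against 13.05 and 13.11. It fell by 0.62 (SE 0.10, limma adjusted p = 0.00410), but not in the unmoderated model (adjusted p = 0.0643).

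The sensor genes changed in opposite directions. SNF3 (YDL194W), the sensor for low glucose, gave 8.93 and 8.84 in the wild type and 9.88 and 10.27 in Sen1ΔN, a rise of 1.19 (SE 0.14, limma adjusted p = 0.00171). It was the largest rise among the 35 genes, and its adjusted p in the unmoderated model was 0.0557. RGT2 (YDL138W), the sensor for high glucose, gave 8.93 and 9.02 against 7.95 and 7.98, a fall of 1.0 (SE 0.07, limma adjusted p = 0.000360). Neither gene's groups overlapped, with both Sen1ΔN arrays above the wild type for SNF3 and both below it for RGT2.

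Downstream of the sensors, RGT1 (YKL038W), the repressor of hexose transporter genes, gave 9.87 and 9.86 in the wild type and 11.10 and 10.93 in Sen1ΔN. It rose by 1.15 (SE 0.08, limma adjusted p = 0.000385). MTH1 (YDR277C), a corepressor of Rgt1, gave 8.77 and 9.14 against 9.90 and 10.30. It rose by 1.14 (SE 0.19, limma adjusted p = 0.00464), and its adjusted p in the unmoderated model was 0.0861. STD1 (YOR047C), the paralog of MTH1, lay at 10.27 and 10.24 against 10.40 and 10.34. Its difference of 0.12 did not pass, and it became 0.32 (adjusted p = 0.0106) with the length trend removed.

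The zinc-finger repressors of glucose repression also parted. MIG1 (YGL035C) gave 10.41 and 10.43 in the wild type and 10.94 and 11.20 in Sen1ΔN, a rise of 0.64 (SE 0.11, limma adjusted p = 0.00471, and 0.0712 in the unmoderated model). MIG2 (YGL209W), itself a glucose-induced target of Rgt1, gave 11.75 and 11.81 against 10.73 and 10.78 and fell by 1.02 (SE 0.07, limma adjusted p = 0.000324). GCR1 (YPL075W), the activator of glycolytic genes, gave 10.23 and 10.38 against 11.35 and 11.27. It rose by 1.0 (SE 0.08, limma adjusted p = 0.000573).

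Of the 24 calls, 12 held in all 12 alternative settings, of which 9 were falls (GLK1, PGI1, TDH1, GPM2, ENO1, PYK2, PDC5, RGT2 and MIG2) and 3 were rises (PFK26, RGT1 and GCR1). Another 6 (HXK1, ADH5, ALD6, SNF3, MTH1 and MIG1) were lost in the unmoderated model alone.

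Related genes were then set side by side as the log2 ratio of both signals within an array. A change of this ratio shows unequal change of the genes, not their relative abundance. In all 16 pairs the ratios on the Sen1ΔN arrays lay outside those on the wild-type arrays, and this held in 87.3% of all possible gene pairs. With 2 arrays per strain the exact permutation test cannot go below p = 0.333 (two-sided), which each pair reached. Most of the 13 enzyme pairs set a minor or other form over the main one. The exceptions were PFK1 over PFK2, subunits of the same enzyme, and PFK26 over PFK27, neither taken here as the main form. Among the 13 the ratio was lower in Sen1ΔN in 10 and higher in 3. Because HXK2, GPM1, PDC1 and ADH1 recur, these pairs are not independent. GLK1 over HXK2 changed by -1.51 (SE 0.17) and PYK2 over CDC19 by -0.76 (SE 0.14). PDC5 over PDC1 changed by -0.72 (SE 0.02), TDH1 over TDH3 by -0.59 (SE 0.01) and ENO1 over ENO2 by -0.48 (SE 0.04). For HXK1 over HXK2 the change was -0.79 (SE 0.33), from -0.16 and -0.17 to -1.29 and -0.63, and it was -0.47 without Sen1ΔN replicate 1. The higher ratios were those of PFK26 over PFK27 (1.23, SE 0.26), GPM3 over GPM1 (0.54, SE 0.11) and ADH3 over ADH1 (0.46, SE 0.15).

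Of the regulator pairs, SNF3 over RGT2 changed most of all 16, by 2.19 (SE 0.20), from 0.00 and -0.17 in the wild type to 1.93 and 2.29 in Sen1ΔN. MIG2 over MIG1 changed by -1.67 (SE 0.11), from 1.33 and 1.38 to -0.21 and -0.42. MTH1 over STD1 changed by 1.03 (SE 0.31). The TDH, ENO and PDC genes are close paralogs, and how far their probe sets tell family members apart is unknown here.

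**Figure D3:**
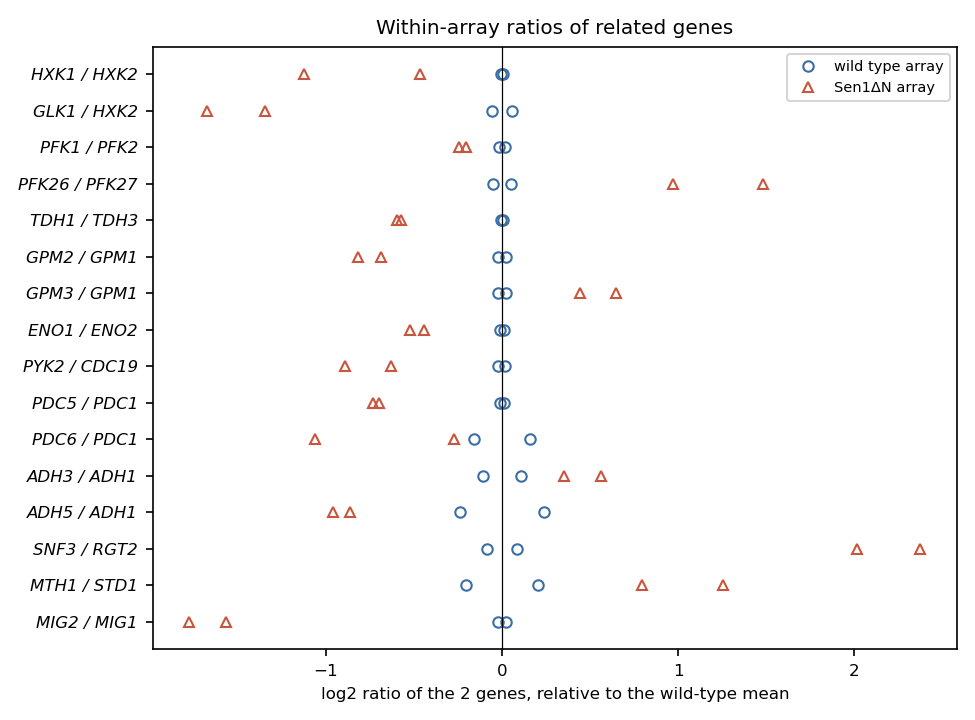
Within-array log2 ratio of related genes, relative to the mean of the 2 wild-type arrays, for 16 pairs; circles are wild-type and triangles Sen1ΔN arrays. The Sen1ΔN points lie outside the wild-type points in every pair, furthest for SNF3 over RGT2 (2.19), MIG2 over MIG1 (-1.67) and GLK1 over HXK2 (-1.51).

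The size of the differences varied with where a gene lay on the signal scale. Of the 35 genes, 18 had a mean wild-type signal above 12.72, the 90th percentile of all genes, and all 18 were enzyme genes. Of these 10 fell and none rose, with a median difference of -0.23. Their median absolute difference was 0.23, with 1 fall of at least 2-fold, GLK1. Among all 545 genes that bright, 279 fell and 120 rose, also with a median difference of -0.23. With quantile normalisation the medians of the 18 and the 545 were -0.21 and -0.14, and with the length trend removed -0.11 and -0.27. The median absolute difference of those 545 was 0.41. The 17 dimmer genes had 7 rises and 7 falls and a median absolute difference of 1.0. Over all 4904 dimmer genes 1801 rose and 1596 fell, with a median absolute difference of 0.47. The 9 enzyme genes among the 17 had 5 falls and 2 rises and a median absolute difference of 0.92, and the 8 sensor and regulator genes 1.01. The tops of the arrays' scales differed by strain, with the highest signal at 14.74 on both wild-type arrays and at 14.56 and 14.57 on the Sen1ΔN arrays. With quantile normalisation, which makes them equal, the median of the enzyme genes was -0.24. Array signals near the top of the scale understate differences, and the part of this in the small changes of the main glycolytic genes was not tested.

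**Figure D4:**
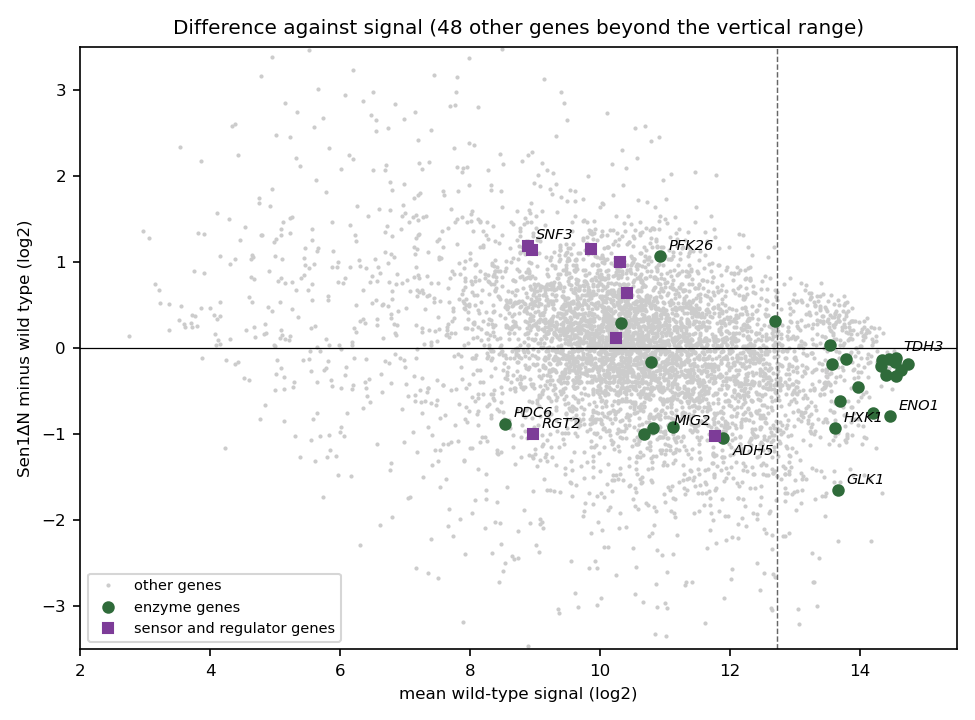
Difference between the strains (log2) against the mean wild-type signal (log2) for all genes (grey), with enzyme genes as green circles and sensor and regulator genes as purple squares; the dashed line is the 90th percentile, 12.72, and 48 other genes lie beyond the vertical range. The 18 bright enzyme genes lie near 0 except for a few such as GLK1 (-1.65), HXK1 (-0.93) and ENO1 (-0.79).

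A sign of RNA or label length moved with strain, and 1 of the genes described here shows it directly. The array carries extra control probe sets near the 5′ end, in the middle and near the 3′ end of TDH1. The 3′ signal of TDH1 was 14.28 and 14.31 in the wild type and 13.61 and 13.72 in Sen1ΔN, a difference of -0.62. Its 5′ signal was 14.09 and 14.16 against 10.15 and 10.03, a difference of -4.03, and the middle differed by -2.79. The value of the TDH1 gene probe set, -0.76, thus lay close to the 3′ control, and all 3 positions were lower in Sen1ΔN. Of 8 such yeast control transcripts, 6 had a 5′ signal above background on each of the 4 arrays, and in all 6 the 3′ minus 5′ difference was larger in Sen1ΔN, by 1.24 to 4.03. Where the probe sets of the other genes lie on their transcripts is unknown here, and the part of this shift in their differences was not tested.

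**Figure D5:**
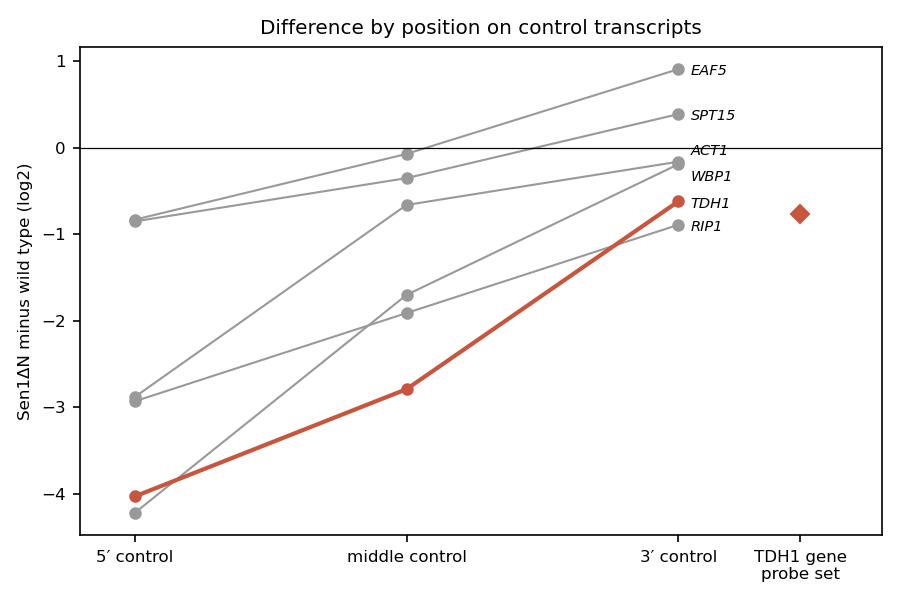
Difference between the strains (log2) at the 5′, middle and 3′ control probe sets of 6 yeast transcripts, with TDH1 in red and its gene probe set as a diamond. TDH1 runs from -4.03 at the 5′ end to -0.62 at the 3′ end, and its gene probe set lies at -0.76.

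Differences also varied with gene length over the whole array, taken as the gene's span in the R64 reference table. Over genes of all lengths 34.4% fell and 35.3% rose. The 7 genes longer than 2000 bp, among them SNF3, RGT1, GCR1 and PFK26, had 4 rises and 1 fall and a median of 1.0, where all 1228 genes of that length had 0.00. In the 9 genes over 1500 and up to 2000 bp, 7 fell and 1 rose, with a median of -0.62 against -0.03 for all genes of that length. The 13 genes over 1000 and up to 1500 bp had a median of -0.16 against -0.17. The 6 shorter ones, at most 1000 bp, had -0.21 against 0.15. Removing the length trend moved the median of the 35 genes from -0.18 to -0.08 and left 13 falls and 9 rises, against 17 and 7 before. Over all genes it moved the median from 0.01 to 0.05, with 1730 falls and 2031 rises against 1875 and 1921 before.

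Other genes around these pathways were taken from lists of 85 genes, of which 83 were measured, and 41 fell and 12 rose. These 53 calls lie near the share over all genes, 69.7% in either direction. By direction 34.4% of all genes fell and 35.3% rose, so the lists held a larger share of falls and a smaller share of rises. Of 15 genes for other carbon end products, 10 fell and 1 rose, with a median of -0.61. GPD1, the stress-induced glycerol-3-phosphate dehydrogenase of glycerol synthesis, fell by 2.38 (SE 0.07, limma adjusted p = 6.38e-05), and the glycerol phosphatase gene GPP2 fell by 1.43. ADH4 fell by 1.54 and ALD3, a stress-induced aldehyde dehydrogenase gene, by 1.36. In gluconeogenesis and pyruvate entry 4 of 13 fell and 2 rose, so the 6 calls were a smaller share than the 69.7% of all genes. LAT1 and PDA1, of the pyruvate dehydrogenase complex, fell by 0.86 and 0.76 and the pyruvate carboxylase gene PYC1 fell by 0.85. The mitochondrial pyruvate carrier gene MPC3 rose by 1.17 (SE 0.32, limma adjusted p = 0.0256), which was 0.70 without Sen1ΔN replicate 2, and lost its call without wild type replicate 1 (adjusted p = 0.0793), in the unmoderated model (adjusted p = 0.182) and with the length trend removed (adjusted p = 0.0659).

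Among 7 paralogs and further regulators 4 fell and none rose, where 34.4% of all genes fell and 35.3% rose. PGM2, the main phosphoglucomutase gene, fell by 2.66 (SE 0.21, limma adjusted p = 0.000468) and PGM1 fell by 0.80. EMI2, the paralog of GLK1, fell by 0.88 and the glycolytic activator gene TYE7 fell by 0.44. EMI2 fell by 0.56 without Sen1ΔN replicate 1 and lost its call without wild type replicate 2 (adjusted p = 0.0637). TYE7 lost its call without wild type replicate 1 (adjusted p = 0.0593), and neither passed in the unmoderated model (adjusted p = 0.155 and 0.0796).

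The Rgt1 circuit and its transporter targets moved both ways, with 3 rises and 2 falls among 7. Over all genes 35.3% rose and 34.4% fell. HXT1, a low-affinity transporter gene induced by high glucose, fell by 0.87 (SE 0.10, limma adjusted p = 0.00126). HXT2 and HXT4, transporter genes induced by low glucose, rose by 1.18 (SE 0.07, limma adjusted p = 0.000236) and 0.78 (SE 0.12, limma adjusted p = 0.00337), while HXT3 differed by -0.04 and did not pass. YCK2, for a casein kinase in the sensor pathway, rose by 0.64. HXT4 and YCK2 did not pass in the unmoderated model (adjusted p = 0.0660 and 0.0734).

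In the circuit of the Snf1 kinase and Mig1 repression 11 of 19 fell and 2 rose, with a median of -0.48. Over all genes 34.4% fell and 35.3% rose, 69.7% in either direction. GAL83, a β subunit of Snf1, fell by 1.29 (SE 0.09, limma adjusted p = 0.000328), and the activator gene ADR1 fell by 1.12. TUP1, which encodes the corepressor that Mig1 recruits, fell by 0.91 and the Snf1-activating kinase gene TOS3 by 0.81. Of 6 measured genes repressed through Mig1, 2 rose and 1 fell, so the 3 calls were a smaller share than the 69.7% of all genes. MAL11, a maltose and trehalose transporter gene, rose by 2.52 (SE 0.20, limma adjusted p = 0.000503), from 6.52 and 6.58 to 8.77 and 9.36. GAL1, for galactokinase, rose by 0.68, which was 0.44 without Sen1ΔN replicate 2, and lost its call without wild type replicate 1 (adjusted p = 0.0851) and in the unmoderated model (adjusted p = 0.163). GAL3, for the galactose sensor, fell by 2.40 (SE 0.13, limma adjusted p = 0.000210), to 5.39 and 5.65, near the background of 5.36 and 5.35. GAL3 lies next to TRP1, a mutated marker of the Sen1ΔN strain, in the R64 gene order, and whether that bears on its value was not tested.

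Of 16 measured genes of glucose signalling through protein kinase A, 9 fell and 2 rose, with a median of -0.22. Over all genes 34.4% fell and 35.3% rose, 69.7% in either direction. RGS2, for a regulator of the G protein α subunit Gpa2, fell by 2.72 (SE 0.23, limma adjusted p = 0.000603), from 11.43 and 11.41 to 9.04 and 8.35. GPA2 itself fell by 0.88. BCY1, the regulatory subunit of protein kinase A, fell by 1.02 (SE 0.07, limma adjusted p = 0.000394) and the adenylate cyclase gene CYR1 by 0.68.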

How the data were processed

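The deposited values are log2 signals, 1 per probe set and array, made with RMA in Affymetrix Expression Console per the submitters' processing notes; versions, and which arrays were normalised together, are not given in the sources used here. By design RMA scales arrays to a common distribution, which would hide changes in total mRNA per cell, but the deposited maxima differ by strain (14.74 and 14.74, against 14.56 and 14.57). Of 10928 probe sets, 5498 carried 1 S. cerevisiae gene in the platform annotation, and their mean was taken per gene (5449 genes). The 95th percentile of 1746 S. pombe probe sets, 5.23 to 5.36, served as background. Sen1ΔN minus wild type was fitted over all genes with limma 3.58.1 in R 4.3.3 (lmFit, eBayes without trend, two-sided, 2 residual degrees of freedom, Benjamini-Hochberg over 5449 genes) and called at an adjusted p under 0.05. The design text calls both experiments of a strain independent, and the small number of arrays limits precision throughout.

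All 36 genes are named, and up to 4 called genes with the largest difference of each surrounding list. HXT3, which was not called, is named besides these. Genes and lists were chosen with earlier results of these data known, so counts over them are descriptions. The alternatives tried were leaving out each array in turn, the replicate number as a block, quantile normalisation, median centring, a background filter (2 arrays), eBayes with trend and robust moderation, an unmoderated model, the brightest probe set per gene, and subtraction of a loess fit of the difference on log2 gene length (span 0.5, degree 1).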

Additional observations from a re-analysis of the deposited data

How the results depend on the processing

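With 2 arrays per strain, calls rest on the spread shared across genes. In the unmoderated model 1209 genes were higher and 1236 lower, against 1921 and 1875 in the moderated fit. Of the 35 genes 3 then rose and 16 fell, against 7 and 17. The falls lost HXK1, ADH5, ALD6 and PDC6 and gained TDH3, TPI1 and CDC19. Of the surrounding lists 5 genes rose and 29 fell, against 12 and 41. With the length trend removed 20 genes of those lists rose and 36 fell, where over all genes 2031 rose and 1730 fell. Leaving out 1 array, which left 1 array in that strain, gave a median difference of the 35 genes from -0.23 to -0.17, against -0.18 with all arrays. With a replicate block 6 of the 35 rose and 16 fell, GPM3 and PDC1 losing their calls (adjusted p = 0.0603 and 0.0660), and 1741 genes in all were higher and 1730 lower. The deviations of same-numbered arrays correlated at -0.03 across genes, and the labels do not say that a number marks a shared day or batch, so the block is given only here. The 16 pair ratios separated the strains also with quantile normalisation and with the length trend removed.

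Signs turned only for genes that had not passed. With the length trend removed the difference became 0.05 for HXK2, 0.07 for FBA1, 0.06 for PFK27, 0.01 for TDH3 and for CDC19, 0.06 for ADH1 and 0.09 for HXT3. PFK2 was -0.02 without Sen1ΔN replicate 1 and 0.10 without replicate 2, and TDH3 was 0.00 with quantile normalisation, by construction, since it was the brightest gene on every array. With trend and robust moderation PFK1, FBA1, TPI1, TDH3, CDC19 and ADH1 also passed as falls, which made 23 of the 35, and ADH3 as a rise, which made 8.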
